A study of Mus musculus with 9 samples.

Results

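RNA sequencing of mouse heart was read for 10 genes of the extracellular matrix made by cardiac fibroblasts and neighbouring cells: the matricellular genes Postn, Thbs1, Thbs4, Sparc and Spp1, the adhesive glycoprotein gene Fn1, the small leucine-rich proteoglycan genes Dcn and Lum, and the crosslinking enzyme genes Lox and Loxl1. They were chosen by name with earlier results of these data known, so shares over all genes are given beside their counts as a description. All 10 were found among the 22851 genes of the deposited count matrix. The 9 libraries came from mice whose strain the labels give as C57BL/6 and the study's methods as male C57BL/6J, and fell into 3 groups of 3. CK mice were normal controls given buffer. DCM mice received 1 injection of streptozotocin, which destroys pancreatic beta cells and produces type 1 diabetes, and were then kept for 12 weeks as a model of diabetic cardiomyopathy. SPM mice had the same injection and the same 12 weeks, with the polyamine spermine at 1 mg/kg given for 2 weeks before the streptozotocin and continued afterwards, so DCM differs from CK by streptozotocin and SPM differs from DCM by spermine. No group received spermine without streptozotocin.

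Fibroblasts are the main source of matrix in the heart. They secrete fibrillar collagens together with matricellular proteins, which bind collagen and cell surface receptors without being structural elements themselves, and with small proteoglycans that coat collagen fibrils and set their spacing. The lysyl oxidases then oxidize lysine residues of collagen and elastin, the step from which covalent crosslinks form. Periostin, SPARC, osteopontin and LOX are widely studied in cardiac fibrosis and in healing after infarction.

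The tissue label is heart, whereas the extraction protocol of the same labels speaks of retinas. Cardiomyocyte markers summed to between 24641 and 36704 CPM (counts scaled to a common library total) in every library, with Myh6 and Tnnt2 among them, while the 5 retina markers in the table each stayed under 1 CPM in every library. The study's methods give both 3 mice per group and pools of 6 hearts, so whether a library holds 1 heart or several is not settled, and p-values measure the spread between these libraries, which may be partly technical. Library totals lay between 29901300 and 39718680 counts, and the 10 genes had between 50 counts (Spp1) and 35088 counts (Dcn) per library. SPM replicate 2 stood apart: it lay between SPM replicates 1 and 3 for 68.4% of 12609 genes, against 14.6% to 39.5% for the other libraries, and of 2656 genes at 0 in both SPM replicates 1 and 3 it had a count for 30, against 485 to 1162 for the other libraries. It lay between its group's other 2 libraries for 9 of the 10 genes, so values without it are given beside the SPM comparisons. The share of counts on mitochondrial genes was 13.7% to 16.2% for CK libraries, 15.5% to 18.9% for DCM libraries and 21.01% to 21.09% for SPM libraries.

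Levels of one gene across libraries are given as CPM scaled by the trimmed mean of M values (TMM). Each pair of groups was tested in edgeR with its quasi-likelihood method, p-values were adjusted over all genes tested, and a gene was called, that is upregulated or downregulated, when its adjusted p was under 0.05 and its fold change at least 1.5.

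Upstream sequence could be set beside the values for a few of these genes. RefSeq promoter windows (GRCm38.p6) were held here for Postn, Thbs4, Sparc and Spp1. The windows of Postn and Thbs4 are shown because one gene was downregulated in DCM compared to CK and the other was not called in any comparison. Both strands were searched for TATAAA, the core of the TATA box, and for GGGCGG, the GC box bound by SP1-type factors, and the capitals mark matches. Of 32851 windows of 250 bases upstream of a RefSeq start, 12.4% held TATAAA and 32.7% held GGGCGG. The 120 bases before the RefSeq start nearest the gene's annotated 5′ end, from chr3:54360987-54361106 on the + strand for Postn and chr13:92794819-92794938 on the - strand for Thbs4, read 5′ to 3′ as follows.
Postn: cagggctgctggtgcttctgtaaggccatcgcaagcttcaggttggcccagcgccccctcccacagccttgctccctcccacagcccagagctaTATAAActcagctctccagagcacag
Thbs4: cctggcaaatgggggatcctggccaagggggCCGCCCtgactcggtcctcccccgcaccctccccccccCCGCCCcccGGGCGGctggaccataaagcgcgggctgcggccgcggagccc
Postn held 1 TATAAA match ending 20 bases before the start and no GGGCGG. RefSeq gives Postn another start farther upstream, whose window held neither. Thbs4 held 3 matches to GGGCGG on either strand and no TATAAA. The windows not shown gave another picture. The window held for Sparc, which was also downregulated in DCM compared to CK, had neither motif. Its 120 bases before the RefSeq start, chr11:55420081-55420200 on the - strand, overlapped Sparc exons and lay inside the annotated gene. They are therefore not the sequence before the annotated 5′ end of Sparc, which was not searched. Spp1, which was not called in any comparison, held 1 TATAAA match ending 205 bases before a RefSeq start and no GGGCGG. These are letter matches only, and no binding was measured.

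In DCM compared to CK, 3 of the 10 genes were called. Sparc and Postn were downregulated and Lox was upregulated, by 2.01-fold, 1.60-fold and 1.78-fold, respectively. Loxl1 and Lum were also lower with adjusted p-values under the limit, at 1.48-fold and 1.40-fold, which misses the fold limit. The called share was 4.34% over the 14402 genes tested (2.03% higher and 2.31% lower), and 10.4% of genes passed the adjusted p alone, against 5 of the 10. CK and DCM libraries did not overlap for 6 of the 10 genes, against 29.3% of all genes. The median log2 fold change was -0.25 over the 10 genes and -0.0025 over all genes tested. By unadjusted p under 0.05 the number was 6, and DESeq2 also called 3.

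**Figure D1:**
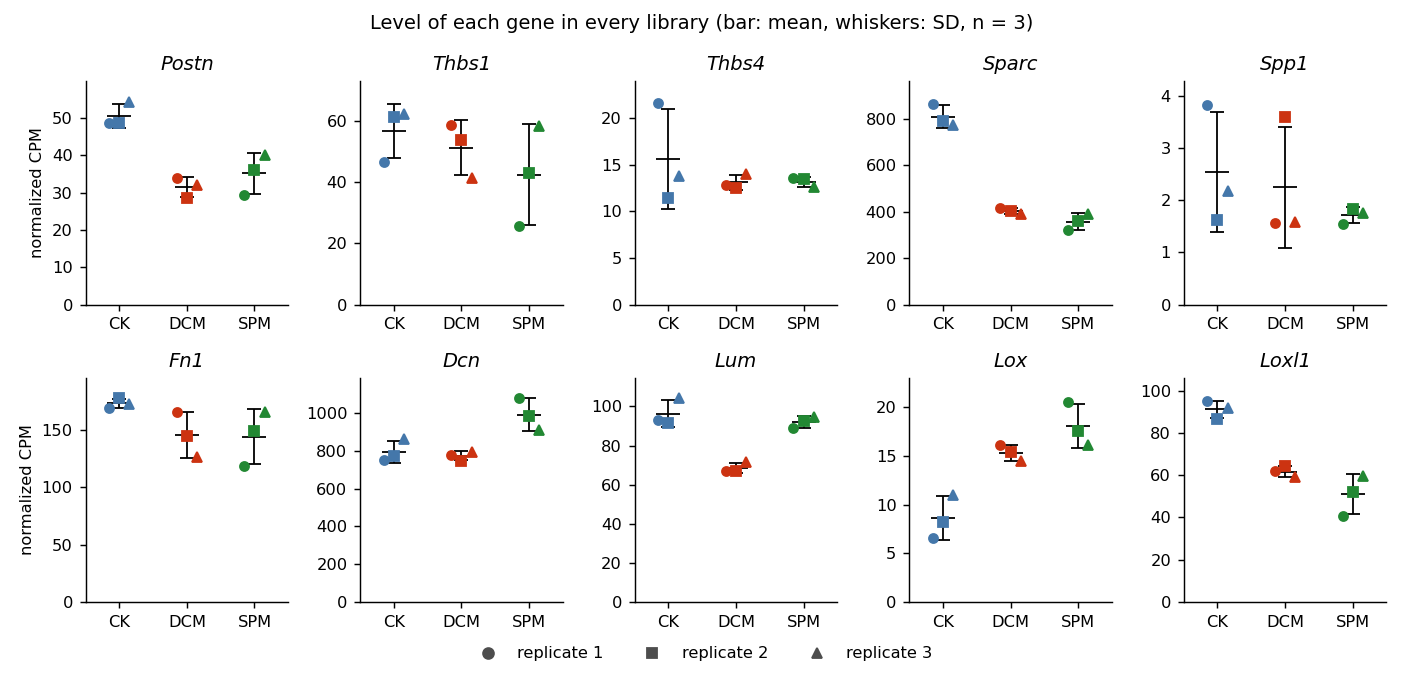
Each panel plots 1 gene, with the TMM-normalized CPM on the vertical axis from 0 and the groups CK, DCM and SPM on the horizontal axis. Points are the 9 libraries (circle, square and triangle for replicates 1, 2 and 3), and bars and whiskers give the mean and SD of 3 libraries. Sparc sits at 773 to 865 CPM in CK and at 320 to 416 CPM in the other 6 libraries, and Lox at 6.60 to 11.03 CPM in CK and 14.5 to 20.6 CPM in the others.

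Among the matricellular genes, Sparc (ENSMUSG00000018593, GRCm38 chr11:55394500-55423183) encodes a collagen-binding glycoprotein that takes part in procollagen processing and fibril assembly. Its level was 865, 793 and 773 CPM in the CK libraries and 416, 402 and 392 CPM in those of DCM. Every DCM library was lower than every CK library by a wide margin, and within each group the 3 libraries were close together. The log2 fold change was -1.01 (SE 0.075, adjusted p = 1.05e-05, edgeR quasi-likelihood test). The SPM libraries stood at 320, 361 and 393 CPM, all below CK and overlapping DCM at the upper end. SPM compared to CK gave -1.18 (SE 0.083, adjusted p = 3.60e-04), and -1.19 (adjusted p = 0.0024) without SPM replicate 2. SPM compared to DCM gave -0.17 (SE 0.083, adjusted p = 0.163), and -0.18 (adjusted p = 0.362) without SPM replicate 2, neither of them called.

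Postn (ENSMUSG00000027750, chr3:54361109-54391037) encodes periostin, a matricellular protein of the cardiac valves and of activated fibroblasts that promotes collagen fibril formation. CK libraries held 48.7, 48.5 and 54.1 CPM, and DCM libraries 33.9, 28.7 and 32.1 CPM. The groups did not overlap, and the log2 fold change was -0.68 (SE 0.087, adjusted p = 4.25e-04). The SPM values of 29.2, 36.0 and 40.2 CPM reached above the DCM range and stayed below CK. SPM compared to CK gave -0.53 (SE 0.11, adjusted p = 0.0103), under the 1.5-fold limit, and -0.54 (adjusted p = 0.0410) without SPM replicate 2. SPM compared to DCM gave 0.15 (SE 0.11, adjusted p = 0.361), and 0.14 (adjusted p = 0.584) without that library. The SPM comparisons of Postn depended on GC content, as described with the SPM results.

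Thbs1 (ENSMUSG00000040152, chr2:118111876-118127133) encodes thrombospondin 1, which binds CD36 and CD47 and activates latent TGF-beta. In CPM, the CK libraries held 46.5, 61.5 and 62.3, the DCM libraries 58.8, 53.8 and 41.3, and the SPM libraries 25.5, 43.1 and 58.5. The 3 groups overlapped, and the SPM libraries differed among themselves by more than the group means did. The log2 fold change was -0.15 (SE 0.13, adjusted p = 0.555) in DCM compared to CK. Within each group the libraries followed the order of the summed mesothelial markers (Msln, Upk3b, Wt1, Krt19 and Lrrn4), which in CPM were 50.8, 64.5 and 92.3 for CK, 82.6, 48.0 and 37.6 for DCM, and 31.2, 61.2 and 86.0 for SPM. In SPM a shared order says little, since replicate 2 lay between replicates 1 and 3 for 68.4% of 12609 genes. Of the single markers, Wt1 did not follow the order in DCM (9.90, 7.65 and 7.91 CPM) or SPM (7.17, 8.52 and 8.01 CPM). None of these 5 markers was called in any comparison, and their part in the Thbs1 values was not tested. Thbs1 also shares 208 exon bases with an antisense gene, and whether counting used the strand is not given in the sources used here.

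Thbs4 (ENSMUSG00000021702, chr13:92751590-92794818) encodes thrombospondin 4, a pentameric thrombospondin of muscle and tendon matrix. CK replicate 1 held 21.6 CPM, and the other 8 libraries held 11.5 to 14.04 CPM. The log2 fold change was -0.25 (SE 0.19, adjusted p = 0.464) in DCM compared to CK and 0.06 without CK replicate 1. Skeletal muscle and tendon markers summed to 0.944 to 2.76 CPM over the 9 libraries.

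Spp1 (ENSMUSG00000029304, chr5:104435118-104441050) encodes osteopontin, a secreted integrin ligand made by macrophages and fibroblasts under stress. It was the least abundant of the 10 genes, with 50 to 120 counts per library. CK libraries held 3.82, 1.62 and 2.17 CPM, DCM libraries 1.56, 3.59 and 1.58 CPM, and SPM libraries 1.54, 1.83 and 1.76 CPM. One CK and 1 DCM library stood at more than 3 CPM and the other 7 at 1.54 to 2.17 CPM, so the groups overlapped. The log2 fold change of -0.19 (SE 0.39, adjusted p = 0.825) in DCM compared to CK changed sign with the library left out. The gene shares 309 exon bases with another gene on the same strand, which has no row in the count matrix. Whether this overlap affected the Spp1 counts was not tested.

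Fn1 (ENSMUSG00000026193, chr1:71585520-71653200) encodes fibronectin, the adhesive glycoprotein that integrins bind and on which collagen fibrils are laid down. The CK libraries stood at 169.5, 177.9 and 172.6 CPM, the DCM libraries at 165.9, 144.8 and 126.2 CPM, and those of SPM at 118.3, 149.0 and 165.6 CPM. All 6 DCM and SPM libraries were below all 3 CK libraries. The log2 fold change was -0.25 (SE 0.091) in DCM compared to CK, with an unadjusted p of 0.0177 that did not pass after adjustment (adjusted p = 0.109). Plasma fibronectin is made in the liver, and summed liver markers were 353 and 176 CPM in SPM replicates 1 and 2 against 13.9 to 48.3 CPM in the other libraries, with Alb at 247 CPM in SPM replicate 1. Fn1 was lowest in that library, and the part of liver RNA in the Fn1 values was not tested. Fn1 shares 292 exon bases with the antisense gene Apol7d, which held at most 0.193 CPM.

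The proteoglycan genes lie on chromosome 10 next to each other. Dcn (ENSMUSG00000019929, chr10:97479609-97518143) encodes decorin, which binds collagen fibrils and TGF-beta, and Lum (ENSMUSG00000036446, chr10:97565128-97572703) encodes lumican, which limits fibril diameter. In CK and DCM the Dcn level was 751, 772 and 862 CPM and 779, 747 and 795 CPM, respectively. These ranges overlapped, and the log2 fold change was -0.04 (SE 0.078, adjusted p = 0.819). Lum stood at 93.1, 91.5 and 104 CPM in CK and at 67.0, 67.2 and 71.5 CPM in DCM, without overlap. Its log2 fold change of -0.49 (SE 0.075, adjusted p = 0.0014) passed the adjusted p and not the fold limit.

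The crosslinking enzyme genes Lox and Loxl1 differed from CK in opposite directions. Lox (ENSMUSG00000024529), on chromosome 18, encodes lysyl oxidase and had 6.60, 8.17 and 11.03 CPM in the CK libraries, 16.1, 15.4 and 14.5 CPM in those of DCM, and 20.6, 17.5 and 16.1 CPM in those of SPM. All 6 libraries of streptozotocin-treated mice were above the 3 CK libraries. The log2 fold change was 0.83 (SE 0.16, adjusted p = 0.0064) in DCM compared to CK and 1.07 (SE 0.18, adjusted p = 0.0042) in SPM compared to CK, where it was 1.09 (adjusted p = 0.0165) without SPM replicate 2. Lox shares 30 exon bases with an antisense gene.

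Loxl1 (ENSMUSG00000032334, chr9:58287738-58313186) encodes lysyl oxidase-like 1, which acts on elastin and is needed for elastic fibre maintenance. Its level was 95.0, 86.8 and 92.1 CPM in CK and 62.0, 64.3 and 59.1 CPM in DCM, without overlap. DCM compared to CK gave -0.56 (SE 0.071, adjusted p = 3.99e-04), which is 1.48-fold and just under the limit; the gene was called at -0.60 without CK replicate 2, at -0.59 without DCM replicate 2 and at -0.65 by limma on FPKM. The SPM libraries held 40.9, 52.2 and 59.7 CPM. SPM compared to CK gave -0.85 (SE 0.12, adjusted p = 0.0024), a call, and -0.86 (adjusted p = 0.0124) without SPM replicate 2. SPM compared to DCM gave -0.28 (SE 0.12, adjusted p = 0.118), and -0.30 (adjusted p = 0.232) without that library.

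**Figure D2:**
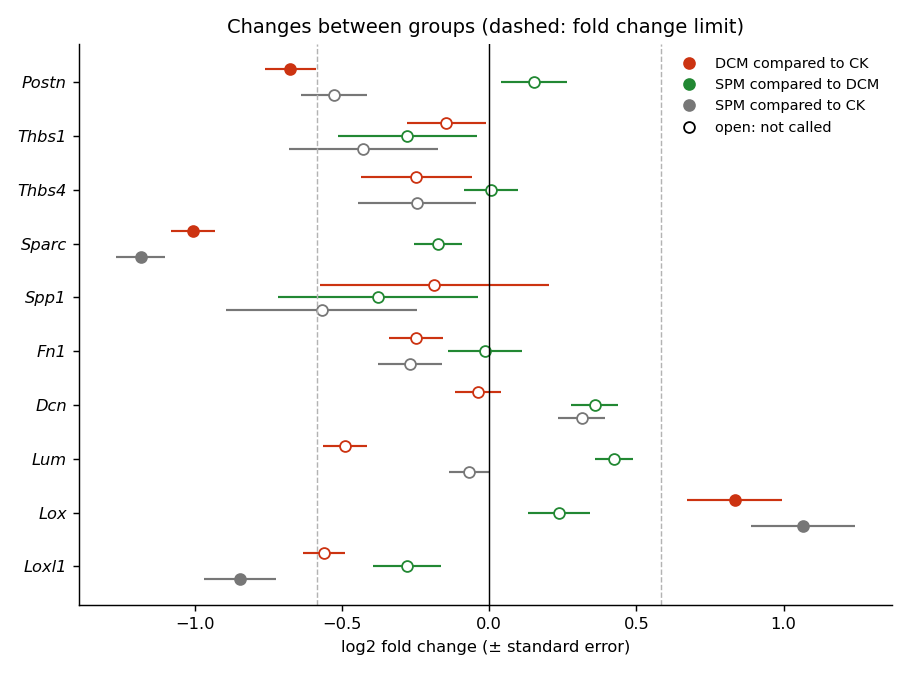
The horizontal axis is the log2 fold change with its standard error, and each gene has 1 point for each comparison (red DCM compared to CK, green SPM compared to DCM, grey SPM compared to CK). Filled points are called and dashed lines mark the 1.5-fold limit. Sparc at -1.01 and -1.18 and Lox at 0.83 and 1.07 are filled in both comparisons with CK, and no point of SPM compared to DCM is filled.

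In SPM compared to DCM, which asks what spermine changed in the diabetic heart, none of the 10 genes was called by edgeR or DESeq2, while 3.59% of all 14493 genes tested were. By unadjusted p under 0.05 the number was 4 (Dcn, Lum, Lox and Loxl1). Lum and Dcn passed the adjusted p without reaching 1.5-fold, against 16.6% of all genes. Lum stood above its DCM values at 88.9, 92.5 and 94.7 CPM (log2 fold change 0.42, SE 0.064, adjusted p = 0.0096), and Dcn at 1080, 987 and 908 CPM (0.36, SE 0.080, adjusted p = 0.0199). Libraries did not overlap for Lum, Dcn and Lox, that is 3 of the 10, against 39.2% of all genes. For Lox the lowest SPM value (16.108 CPM, replicate 3) was barely above the highest DCM value (16.079 CPM, replicate 1). The median was -0.0043 over the 10 genes and 0.0057 over all genes.

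The adjusted p-values of both genes lay around the limit or above it without SPM replicate 2. Lum was at 0.42 (adjusted p = 0.0543) and Dcn at 0.36 (adjusted p = 0.0950) in the pairwise fit, and at 0.42 (adjusted p = 0.0496) and 0.36 (adjusted p = 0.0715) in 1 fit of the 8 remaining libraries. Lox was at 0.24 (SE 0.11, adjusted p = 0.136) with all libraries and at 0.26 (adjusted p = 0.274) in the pairwise fit without replicate 2. Over all genes, that pairwise fit gave these shares: 0.378% called and 0.486% past the adjusted p. Across genes, the log2 fold change of SPM compared to DCM also followed GC content (Spearman's rho of -0.50 over 14484 genes, a description, since genes are not independent), while the rho was 0.06 in DCM compared to CK and -0.37 in SPM compared to CK. Postn and Dcn, with 36.3% and 37.4% GC, are the most AT-rich of the 10 genes, and Loxl1, with 61.0%, is the most GC-rich. With a correction for GC content, Lum was at 0.15 (adjusted p = 0.218) and Dcn at -0.07 (adjusted p = 0.717), so neither passed any longer. Loxl1, which had not passed without the correction either (-0.28, adjusted p = 0.118), was at -0.07 (adjusted p = 0.727). Lox was at 0.03 (adjusted p = 0.889) with the correction. Postn turned from 0.15 to -0.30 (adjusted p = 0.139). Among the alternatives run, Thbs1 was called (-0.59) only when SPM replicate 3, its highest SPM library, was left out.

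**Figure D3:**
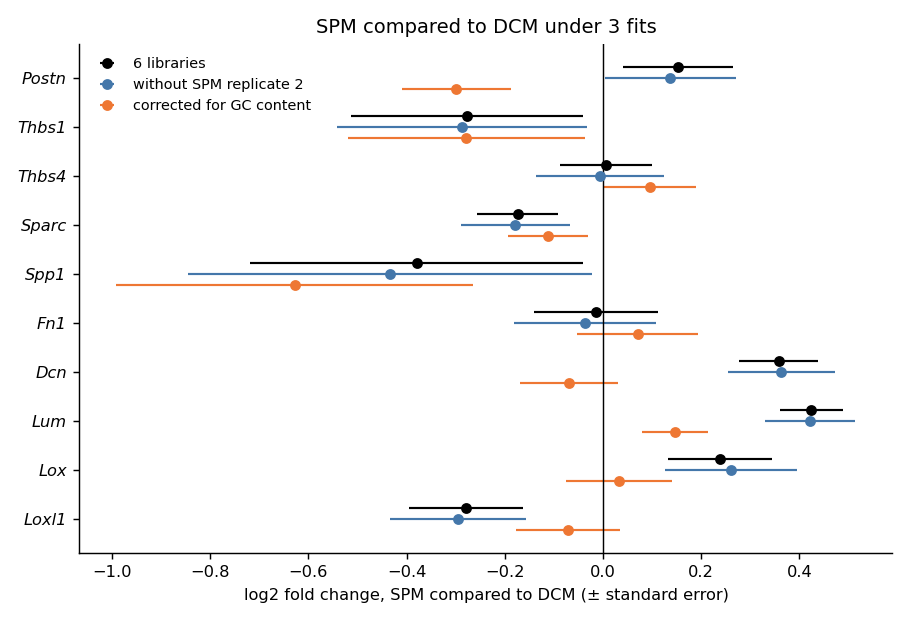
The horizontal axis is the log2 fold change of SPM compared to DCM with its standard error, for each of the 10 genes on the vertical axis, from 6 libraries (black), without SPM replicate 2 (blue) and with a GC correction (orange). Dcn moves from 0.36 to -0.07 and Postn from 0.15 to -0.30 under the correction, while leaving out SPM replicate 2 moves no gene by more than its standard error.

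SPM compared to CK tells which differences from the normal heart were present in mice given both agents. This comparison shares the CK libraries with DCM compared to CK, and the SPM libraries with SPM compared to DCM. Again 3 of the 10 genes were called, Lox higher and Sparc and Loxl1 lower, against 9.21% of all 14574 genes (5.08% higher and 4.12% lower). The adjusted p alone was passed by 5 of the 10 and by 27.4% of all genes, and 6 of the 10 did not overlap against 46.3%. Without SPM replicate 2, the counts were 3 called and 4 past the adjusted p, against 5.18% and 10.4%. The median log2 fold change was -0.35 over the 10 genes and 0.0022 over all genes. By unadjusted p under 0.05 the number was 6, and DESeq2 called 3. For Lum the difference was -0.07 (SE 0.067, adjusted p = 0.466), so that its SPM libraries overlapped CK. With the GC correction it was -0.30 (adjusted p = 0.0203). Dcn was at 0.31 (SE 0.079, adjusted p = 0.0203), and at -0.08 (adjusted p = 0.569) with the GC correction. Without SPM replicate 2 it was at 0.32 in both fits, with an adjusted p of 0.0742 in the pairwise fit and 0.0434 in the fit of 8 libraries. Fn1 was at -0.27 (SE 0.11, adjusted p = 0.0974), and at -0.29 (adjusted p = 0.183) without SPM replicate 2. Thbs4 at -0.25 and Spp1 at -0.57 were not called, nor without that library at -0.26 and -0.62. Postn was called with the GC correction (-0.97, adjusted p = 0.0020), without SPM replicate 3 (-0.64) and by limma (-0.63). Without SPM replicate 2, Lum was at -0.07 (adjusted p = 0.644). Thbs1 was at -0.43 (SE 0.25, adjusted p = 0.234), at -0.44 (adjusted p = 0.354) without SPM replicate 2, and, among the alternatives run, was called (-0.73) only without SPM replicate 3.

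Levels of different genes can be compared only per length, and for this the deposited FPKM, which divide each count by gene length and library total, were used. In CK the order was Sparc at 368 ± 24.4 (SD, n = 3), Dcn at 177 ± 11.1, Lum at 41.1 ± 2.41, Loxl1 at 28.9 ± 1.23 and Fn1 at 21.8 ± 0.676 FPKM. Below these lay Thbs1 at 10.1 ± 1.55, Postn at 10.1 ± 0.514, Thbs4 at 5.11 ± 1.76, Lox at 2.01 ± 0.502 and Spp1 at 1.76 ± 0.801 FPKM. Thbs1 and Postn overlapped, as did Lox and Spp1, and all other neighbours in the CK order were apart in every library. In DCM Sparc at 172 ± 7.94 FPKM was just above Dcn at 162 ± 6.92 FPKM. In SPM Dcn came first at 206 ± 17.3 FPKM, ahead of Sparc at 152 ± 15.9 FPKM, and the ranges of these 2 genes did not overlap. Loxl1 and Fn1 overlapped in DCM, and in SPM Fn1 with Loxl1, Thbs1 with Postn and Thbs4 with Lox. Without SPM replicate 2 the SPM means were 206 FPKM for Dcn and 151 FPKM for Sparc. Sparc and Dcn together made up 77.9% to 82.3% of the summed FPKM of the 10 genes in every library. That sum was 655 to 683 FPKM in CK, 409 to 439 FPKM in DCM and 439 to 457 FPKM in SPM.

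Ratios within a library do not depend on how libraries are scaled to each other. Lox FPKM was 5.13%, 6.95% and 8.84% of Loxl1 FPKM in CK, 19.1%, 17.6% and 18.1% in DCM, and 37.1%, 24.8% and 19.9% in SPM, so that no CK library reached any other library and the SPM libraries differed most. The ratio of Sparc to Dcn ranged over 1.83 to 2.35 for CK, 1.01 to 1.10 for DCM and 0.604 to 0.882 for SPM, 3 ranges that were apart. Lum was 22.7% to 23.8% of Dcn for CK, 16.5% to 17.2% for DCM and 15.8% to 20.0% for SPM, where the DCM values lay within the SPM range. These ratios are descriptions and were not tested, in SPM they carry the GC dependence given above, and their SPM ranges are set by replicates 1 and 3.

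**Figure D4:**
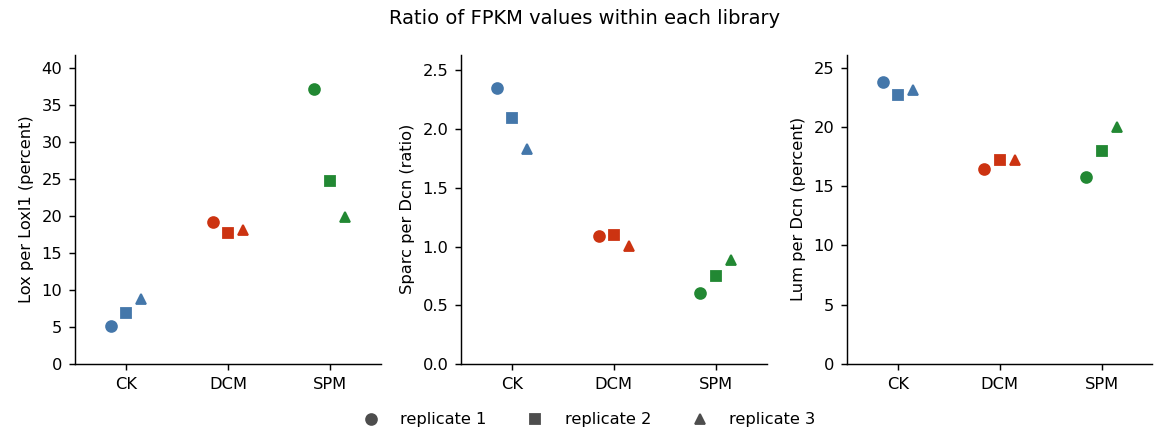
The vertical axes, from 0, give the FPKM of Lox as a percentage of Loxl1 (left), the ratio of Sparc to Dcn (middle) and Lum as a percentage of Dcn (right) for each library of CK, DCM and SPM, with symbols for replicates. The CK libraries are at 5.13% to 8.84% on the left and at 1.83 to 2.35 in the middle, apart from all other libraries.

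The 10 genes were set beside 65 tested genes of 6 related matrix lists, which were also chosen with earlier results of these data known. In DCM compared to CK, 14 of the 65 were called, 12 of them lower, against 4.34% of all genes, and 25 passed the adjusted p. The fibrillar collagens, which SPARC, decorin, lumican and the lysyl oxidases act on, gave calls for 5 of 5 genes, all lower. Col3a1 had the largest difference at -1.54 (SE 0.082, adjusted p = 8.85e-07) and was also the most abundant, with a mean of 496 ± 11.7 CPM across CK libraries and 170.0 ± 15.9 CPM across DCM libraries (SD, n = 3). Col1a1 at -1.06, Col5a2 at -0.83, Col1a2 at -0.81 and Col5a1 at -0.70 followed. The collagens were thus lower together with Sparc and Postn, while Lox was higher.

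Of 14 enzymes and chaperones of collagen crosslinking and maturation, 3 were called and all were lower. Serpinh1, the collagen chaperone HSP47, was at -0.96 (SE 0.080, adjusted p = 1.97e-05) and had the highest CPM of the list. The lysyl oxidase family member Loxl2 was at -0.80 and the prolyl hydroxylase subunit gene P4ha1 at -0.59, at the fold limit. P4ha1 lost its call with the GC correction, without and with a replicate block (both -0.55), and by DESeq2 (-0.58). It also lost it with RLE scaling (-0.58) and with a filter of at least 1 CPM in at least 3 libraries (-0.58). The same held without CK replicate 3 (-0.52), DCM replicate 1 (-0.47) or DCM replicate 2 (-0.58). With no fold limit, 9 of the 14 were lower and none higher, and the list's median was -0.44.

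The matricellular relatives were divided. Of 15 tested, Thbs2, a thrombospondin that limits collagen fibril size, was upregulated at 1.01 (SE 0.083, adjusted p = 1.93e-05), from 49.8 ± 4.55 to 100.2 ± 5.58 CPM. Spock2, a proteoglycan of the SPARC family, was upregulated at 1.98 (SE 0.13, adjusted p = 4.83e-06), from 32.9 ± 6.26 to 129.6 ± 20.1 CPM. Fstl1, another SPARC family member, was downregulated at -0.61. It was under the fold limit with the GC correction, without and with a replicate block (-0.57 and -0.58), and without CK replicate 1 (-0.58) or DCM replicate 3 (-0.55). Sparc and Spock2 therefore moved in opposite directions, and the most abundant gene of this list, Sparcl1, was not called at 400 to 498 CPM across all libraries. The list's median was 0.02.

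Elastic fibre genes gave 2 calls of 12, Eln (elastin) at -0.61 and Mfap4 at -0.83, both lower. Eln was under the fold limit without CK replicate 3 (-0.50) or DCM replicate 3 (-0.51). The most abundant of them, Fbln2, held 234 to 255 CPM in CK and 245 to 296 CPM in DCM and was not called. Matrix receptors gave 1 call of 14, the integrin gene Itga9 at -0.80, a subunit that binds tenascin and osteopontin. Cd36, the thrombospondin receptor and fatty acid transporter and the most abundant of this list, was at 0.25 (adjusted p = 0.112). None of the 5 other small leucine-rich proteoglycans tested was called or passed the adjusted p, and Bgn (biglycan), the most abundant, held 427 to 493 CPM in CK and 385 to 489 CPM in DCM.

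In SPM compared to DCM none of the 65 genes was called by edgeR, against 3.59% of all genes, and 9 passed the adjusted p, against 16.6%. DESeq2 called 2, and 21 had an unadjusted p under 0.05. Without SPM replicate 2, edgeR called 0 and 0 passed the adjusted p. In SPM compared to CK, 17 of the 65 were called, 2 higher and 15 lower, against 9.21% of all genes. Without SPM replicate 2, 16 were called, against 5.18%, and Ltbp2 (-0.73, adjusted p = 0.104) was the one lost. Thbs2 at 1.09 and Spock2 at 1.90 were the higher ones. The lower ones were the 5 fibrillar collagens, with Col3a1 at -1.51 and Col1a1 at -1.23, Serpinh1 at -1.09, Loxl2 at -1.03, Plod1 at -0.72, Mfap4 at -1.16, Eln at -0.87, Ltbp2 at -0.71, Fbn1 at -0.59, Smoc2 at -0.67, Itga9 at -0.78 and Sdc1 at -0.59. With the GC correction Col5a1 (-0.57), Fbn1 (-0.50), Ltbp2 (-0.54) and Sdc1 (-0.47) were not called. The same 4 were not called with the GC correction and a replicate block. Fbn1 and Sdc1 also lost the call without CK replicate 1 or SPM replicate 1, and Ltbp2 without CK replicate 1, CK replicate 3 or SPM replicate 1. In the fit of 8 libraries Sdc1 (-0.58) and Ltbp2 (-0.73, adjusted p = 0.0610) were not called.

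**Figure D5:**
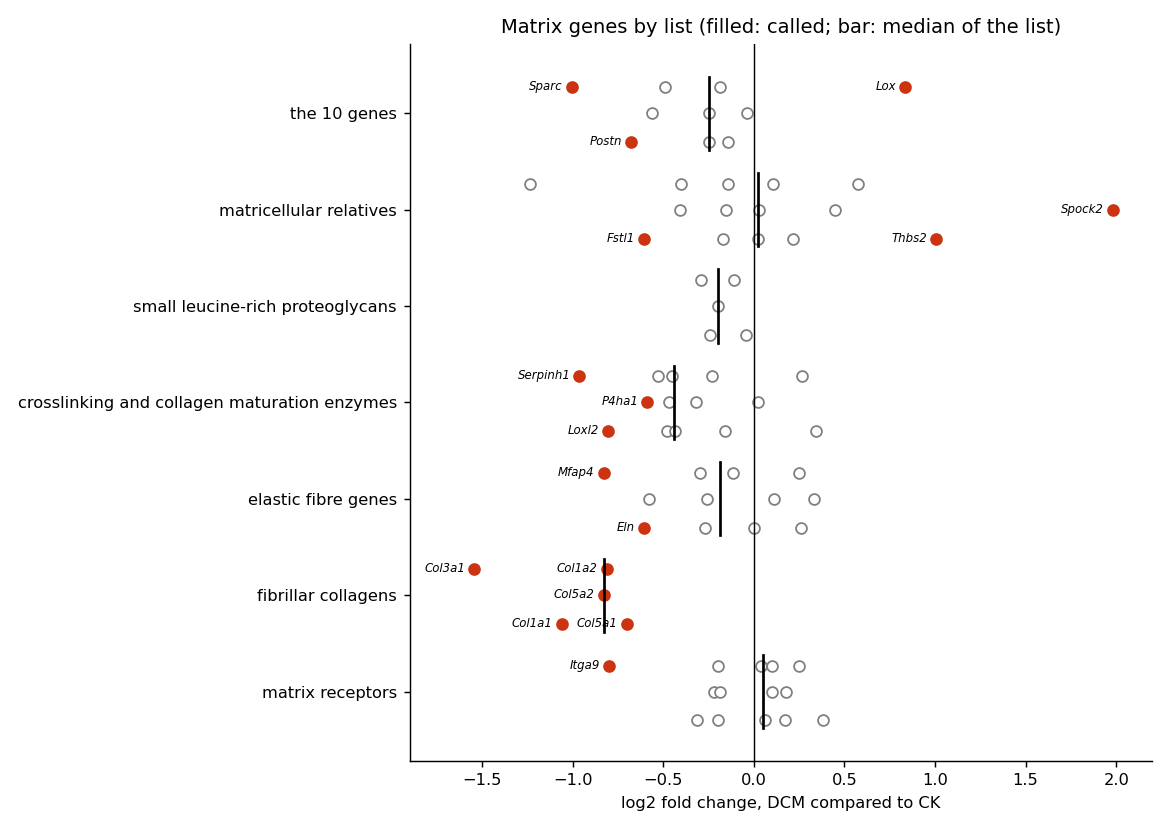
The horizontal axis is the log2 fold change of DCM compared to CK, and each row holds the tested genes of 1 list, spread vertically only for legibility. Filled red points are called and named, open points are not called, and black bars are list medians. All 5 fibrillar collagens lie between -1.54 and -0.70, while Lox, Thbs2 and Spock2 are the called genes above 0.

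Markers of the cells that make these proteins were read in the same way. In bulk RNA, fewer fibroblasts and less RNA per fibroblast cannot be told apart. The 8 fibroblast markers in the table summed to 4289 to 4597 CPM in CK, 4109 to 4797 CPM in DCM and 3587 to 3949 CPM in SPM, and Gsn and Vim, the most abundant, are also expressed outside fibroblasts. In DCM compared to CK, 3 of the 8 were lower by adjusted p and none higher: Pi16, which was called (-0.78, SE 0.090, adjusted p = 2.13e-04), Ddr2 (-0.49, adjusted p = 0.0067) and Dpt (-0.29, adjusted p = 0.0319). Pdgfra, the defining receptor of cardiac fibroblasts, held 80.2 to 83.6 CPM in CK, 78.8 to 88.6 CPM in DCM and 95.7 to 99.7 CPM in SPM. In SPM compared to CK, 4 of the 8 were lower by adjusted p and 1, Pdgfra (0.24, adjusted p = 0.0135), higher, against 27.4% of all genes. Pi16 was the one called, lower at -0.82 (adjusted p = 0.0013), also without SPM replicate 2 (-0.82) and with the GC correction (-0.70). Pdgfra did not pass without SPM replicate 2 (adjusted p = 0.0943). The fibroblast markers were therefore not uniform, and their part in the Sparc and Postn values was not tested. Among 8 markers of activated fibroblasts, the summed range was 252 to 339 CPM in CK, 203 to 401 CPM in DCM and 183 to 234 CPM in SPM, most of it Acta2, which smooth muscle shares. Of 7 tested in DCM compared to CK, only Meox1, a transcription factor of activated fibroblasts, was called, lower at -0.90 (SE 0.12, adjusted p = 5.16e-04). Nox4 of this list went the other way at 0.82 and was not called (adjusted p = 0.143). In SPM compared to CK, Meox1 was called lower (-1.14) and Nox4 higher (1.10, adjusted p = 0.0393). The call of Nox4 was lost without SPM replicate 2 and with the GC correction. Cthrc1 and Tagln stayed under 1 CPM in every library. In the same libraries Acta2 held 121 to 346 CPM and the smooth muscle marker Myh11 102 to 203 CPM. Why Tagln was so low beside them was not tested, so its value may not be a true level.

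Macrophage markers, relevant to Spp1 and Fn1, summed to 690 to 918 CPM in CK, 554 to 669 CPM in DCM and 668 to 1153 CPM in SPM. Of 8 tested, Adgre1 was called lower (-0.93) and Gpnmb higher (1.18) in DCM compared to CK. By adjusted p alone, 4 of the 8 were lower and 1 higher there, and the list's median was -0.47. In SPM compared to DCM, 5 were called higher (Adgre1 1.15, C1qa 0.73, C1qb 0.65, Mrc1 0.64 and Lyz2 0.62). None of these 5 was called without SPM replicate 2. In SPM compared to CK, Gpnmb was called at 1.14. Endothelial markers, which matter for Sparc since endothelial cells express it too, summed to 1575 to 1820 CPM in CK, 1487 to 1646 CPM in DCM and 1359 to 1490 CPM in SPM, and Tie1 was the one of the 4 called in any comparison. It was at -0.34 (adjusted p = 0.0246) in DCM compared to CK, under the fold limit, and called at -0.63 (adjusted p = 0.0017) in SPM compared to CK, also without SPM replicate 2 (-0.63) but not with the GC correction (-0.47). Smooth muscle and pericyte markers summed to 1007 to 1153 CPM over all libraries, and none of the 5 was called in any comparison. The part of these cell types in the results was not tested. Atrial markers summed to 985 to 1396 CPM in CK, 568 to 1062 CPM in DCM and 1027 to 1700 CPM in SPM, and Myl4 and Sln of these were called lower in DCM compared to CK. Nppa was called higher in SPM compared to DCM (0.74, adjusted p = 0.0292) and in SPM compared to CK (0.60, adjusted p = 0.0451), in neither without SPM replicate 2, and the part of atrial tissue was not tested. Platelet markers, relevant to Thbs1, summed to 23.6 to 37.6 CPM over all libraries, most of it Pf4. Single markers varied more: Ppbp ranged from 0.406 to 5.53 CPM and Itga2b from 1.91 to 7.03 CPM. Of the 5, Gp9 was called, lower in SPM compared to CK (-1.53, adjusted p = 0.0121), but not without SPM replicate 2 (-1.61, adjusted p = 0.0510). The part of platelets in the Thbs1 values was not tested.

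The genes with the most similar pattern were listed for 1 gene of each of 3 roles, by the Pearson correlation of log2 CPM over the 9 libraries among 12609 genes. For Postn they were Kdelr2 (r = 0.991), Erg (0.982) and Slc7a7 (0.974). For Dcn they were Taf1b (0.989), Mtpap (0.981) and Cycs (0.981). For Loxl1 they were Hr (0.993), Afdn (0.992) and Dll1 (0.991). None of the 9 belongs to the matrix lists. These are the highest of many coefficients over few libraries in 3 groups that share depth and base composition effects, and they are given as a description.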

How the data were processed

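Poly(A)-enriched RNA of 9 libraries was sequenced by the authors. The authors deposited raw counts, whole numbers per gene, and FPKM per library. Each FPKM equals count per gene length and library total (largest relative deviation 8.58e-13). The submitters' processing notes name Bowtie 0.12.2 and builds mm8 and mm9 without a role. Which counting tool, annotation and strand setting were used is not given in the sources used here. Groups came from sample titles. Of 22851 Ensembl identifiers, 22820 were named with GENCODE M21 (GRCm38).

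Each pair of groups (6 libraries) was fitted to the counts with edgeR 4.0.16 in R 4.3.3: low counts were removed with filterByExpr, libraries were scaled by TMM (factors 0.967 to 1.05), the quasi-likelihood test was applied, and p-values were adjusted by Benjamini-Hochberg over all genes tested. The standard error is the log2 fold change divided by the square root of F. The common biological coefficient of variation was 0.122. Simulated counts with 200 changed genes were used to check the fits. Alternatives were DESeq2 1.42.0, limma 3.58.1 on log2(FPKM + 0.1), RLE scaling, other filters and fold limits, 1 fit over all groups, a replicate block, a lowess correction for GC content (span 0.3) and leaving out each library. One fit over 8 libraries without SPM replicate 2 was added after seeing the data.

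The 10 genes, the 71 genes of 6 matrix lists and the 75 genes of 12 marker lists were chosen with earlier results of these data known. Of these, 66 and 68 were in the table, and the rest were not analysed here. Named genes were the 10 genes, the called genes and most abundant gene of each matrix list, marker genes that were abundant, called or defining, and the 3 genes most correlated with Postn, Dcn and Loxl1. Other named values were chosen after they were seen. Residuals of same-numbered libraries correlated at -0.0746 to 0.205, and of others at -0.284 to 0.217, so replicate numbers were not treated as pairs.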

Additional observations from a re-analysis of the deposited data

How the results depend on the processing

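Of 540 values of single genes under alternatives, 496 kept both direction and side of the threshold, 19 became calls, 25 changed sign and none was lost as a call. Only genes called in the main fits could lose a call: 3 of the 10 in DCM compared to CK, 0 in SPM compared to DCM and 3 in SPM compared to CK. The alternatives with a lower or no fold limit reuse the main fits, so they could only add calls. For Sparc the log2 fold change stayed between -1.09 and -0.96 in DCM compared to CK, for Postn between -0.76 and -0.61, and for Lox between 0.68 and 1.05.

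With no fold limit the called genes among the 10 numbered 5 in DCM compared to CK, 2 in SPM compared to DCM and 5 in SPM compared to CK. Among the matrix lists they numbered 25, 9 and 33 of 65. The shares over all genes were 10.4%, 16.6% and 27.4%, respectively. With a limit of 1.3-fold the first 2 comparisons gave 5 and 1 of the 10, and the lists gave 22, 3 and 26. No share over all genes is given here for that limit or for the settings that follow, so these counts are descriptions. For the lists in SPM compared to DCM, DESeq2 gave 2, no low-count filter 2, the replicate block 3 and the GC correction with replicate block 1. Leaving out 1 library gave 0 to 1 of the 10 and 0 to 3 list genes in SPM compared to DCM (list genes: 1 without DCM replicate 2, 3 when DCM replicate 3 was out, 1 without SPM replicate 1 and 2 when SPM replicate 3 was out), and 3 to 5 of the 10 in SPM compared to CK (5 without SPM replicate 3). The replicate block called 3, 0 and 3 of the 10 genes, as the fit without it did. The libraries share only a number.

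Uncalled differences near 0 changed sign. In DCM compared to CK, leaving out 1 library gave Thbs4 -0.43 to 0.060, Spp1 -0.69 to 0.23 and Dcn -0.078 to 0.024. In SPM compared to DCM it gave Thbs4 -0.026 to 0.046, Spp1 -0.60 to 0.12 and Fn1 -0.13 to 0.10, and in SPM compared to CK Thbs4 -0.43 to 0.054. In SPM compared to DCM, Thbs4 was at -0.0012 by DESeq2, -0.0025 by limma, -0.0030 with no low-count filter and -0.0062 in the fit of 8 libraries. With GC correction, without and with the replicate block, Postn was at -0.30 and -0.31, Fn1 at 0.070 and 0.063 and Dcn at -0.069 and -0.067 in SPM compared to DCM, and Dcn at -0.085 and -0.082 in SPM compared to CK. The cause of these changes was not tested. Counts per library ranged from 50 for Spp1 to 35088 for Dcn, and what depth adds to the spread was not tested.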
